A study of Mus musculus with 16 samples.

Results

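Antibody genes and the genes of the cells that make antibodies were followed in the kidney cortex of mice that had lost Vhl, Pbrm1 or both in tubule epithelium. The genes were those whose annotated symbol starts with Igkv, Igkc, Ighv, Igha, Ighg, Ighm, Iglv or Iglc, together with Jchain, Mzb1, Cd79a, Cd79b, Sdc1 and Pou2af1, each taken at the probe set of highest mean. This rule found 26 of the 22180 genes measured: 17 variable segments, 2 constant regions (Ighm and Ighg3), the 6 B-lineage genes, and Ighmbp2. Ighmbp2 encodes a helicase, has no part in an antibody chain and was taken in through its prefix alone. A RefSeq table of GRCm38.p6 holds 359 immunoglobulin genes that fit the rule, of which 19 were measured here by a probe set listed for a single gene. Igkc, Igha and the Iglc genes are not among them.

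Total RNA was hybridized to 16 Affymetrix arrays, 4 for each of 4 groups of mice, aged 3 months and kept on normal diet. Double mutants carried floxed Vhl, floxed Pbrm1 and Ksp-Cre (VhlF/FPbrm1F/FKsp-Cre), Vhl mutants carried floxed Vhl and Ksp-Cre (VhlF/FKsp-Cre), Pbrm1 mutants carried floxed Pbrm1 and Ksp-Cre (Pbrm1F/FKsp-Cre), and wild-type mice came with no allele named. In Ksp-Cre mice the Cdh16 promoter, active in renal tubule epithelium, drives the recombinase, so blood and immune cells in the cortex were not its target. All 3 mutant groups had a mixed background of C57BL/6, BALB/c and 129, and wild-type mice were C57BL/6, so in each comparison with wild type the genotype and the strain cannot be told apart. The study asked which expression changes come first on the way to clear cell renal cell carcinoma.

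An antibody is built from heavy chains and from light chains of the kappa or lambda kind. Each B cell joins one variable segment to the joining and constant segments of its locus, and its plasma cell progeny transcribe that rearranged gene at very high levels. A variable segment is therefore read in quantity where clones that chose it are present, whereas genes such as Cd79a are shared by all B cells. Variable segments also differ in sequence and in number between inbred strains, so a probe designed on one strain can bind RNA of another strain more or less well. Jchain encodes the joining chain that links antibody units into the secreted forms of IgM and IgA. Because whole cortex was measured, fewer cells of a type and less RNA per cell cannot be told apart.

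The promoter of Jchain, the member with the smallest adjusted p in double mutants against wild type, is shown here because its known regulators bind E-boxes and other short elements upstream of the start. The RefSeq window at chr5:88527848-88528147 (GRCm38.p6, minus strand, 250 bases before to 50 after the start) reads 5′ to 3′ as follows, with E-boxes (CANNTG, a motif that reads the same way on both strands) in capitals.
Jchain: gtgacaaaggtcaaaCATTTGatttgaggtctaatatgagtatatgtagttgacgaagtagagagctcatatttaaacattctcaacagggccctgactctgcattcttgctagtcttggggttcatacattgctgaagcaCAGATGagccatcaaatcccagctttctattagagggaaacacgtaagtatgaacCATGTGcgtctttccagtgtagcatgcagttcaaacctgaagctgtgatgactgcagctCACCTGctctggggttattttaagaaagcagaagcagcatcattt
The window held 4 E-boxes, and 72.3% of 32851 promoters of this length held at least 1. The octamer ATTTGCAT, the element of antibody gene promoters that Oct factors bind with the coactivator encoded by Pou2af1, was searched on both strands. It was in 1.74% of all promoters and in none of the 5 member promoters that the table holds (Jchain, Cd79a, Pou2af1, Sdc1 and Ighmbp2). E-box and octamer can overlap in their letters, and no octamer was present for that to occur here.

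Each value is a log2 level that RMA (robust multi-array averaging) gave, and array medians were 5.18 to 5.27. The lower quartile of an array was at most 3.72, and a group mean under 3.72 was treated as possibly at background. The tissue was as labelled: the proximal tubule transporter Slc34a1 lay between 12.61 and 12.98 on all arrays. The deleted genes did not separate the groups: Vhl averaged 6.22 ± 0.20 in double mutants, 6.28 ± 0.02 in Vhl mutants, 6.26 ± 0.04 in Pbrm1 mutants, against 6.34 ± 0.15 in wild type (SD, n = 4), with a smallest adjusted p of 0.55 over 7 comparisons in limma, and Pbrm1 averaged 8.13 ± 0.08, 8.13 ± 0.14, 8.19 ± 0.04 and 8.19 ± 0.05 in that order (smallest adjusted p = 0.61). Each has 1 probe set, which may lie outside the deleted stretch and also reads other cells, so these levels check nothing about the labels. A gene was called where the adjusted p of the limma fit over all 22180 genes was under 0.05.

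The descriptions give each array a number, 2 numbers per group, followed by a letter, L or R. In the other 3 groups each number occurs once with L and once with R, and in double mutants one number occurs with L, R and R and the other with R. No label explains them, but if the numbers mark animals and the letters left and right kidneys, the 4 arrays of a group come from 2 animals and not from 4. The p-values then reflect the spread of these arrays alone, technical or not. The number puts double mutant replicate 3 with replicates 1 and 2 and leaves replicate 4 alone, and replicates 2 and 3 share one description altogether. The antibody genes go against this. Over 24 immunoglobulin probe sets whose mean over all arrays was above 3.72, the median absolute difference in log2 level was 0.11 between double mutant replicates 1 and 2 and 0.21 between replicates 3 and 4. Across these pairs it was 1.35 (1 and 3), 1.28 (2 and 3), 1.66 (1 and 4) and 1.5 (2 and 4). In the other 3 groups arrays of the same number differed by 0.19 to 0.29 (6 pairs) and arrays of different numbers by 0.22 to 0.53 (12 pairs), and over all genes any pair of arrays of a group differed by 0.10 to 0.16. Some of the 24 reach that mean through the high double mutant arrays. Over the 15 above 3.72 on every array, the pairs 1 and 2 and 3 and 4 differed by 0.09 and 0.12 and the pairs across them by 1.1 to 1.65. Other genes showed the same pairing. Deviations from a mean of few arrays tend to correlate below 0 by construction. Over all genes the correlation was 0.011 for replicates 1 and 2 and -0.07 for 3 and 4, against -0.515 to -0.435 across the pairs. In the other 3 groups the same correlation was -0.199 to -0.103 for arrays of the same number and -0.506 to -0.3 for arrays of different numbers, so over all genes the split of the double mutants was much like that between numbers elsewhere. The tubule transporter Slc22a6 read 10.9, 10.94, 11.71 and 11.57 in double mutants. Calls in double mutants are therefore also given without replicates 3 and 4 for the members and for most list genes named, an alternative chosen after the data were seen. It keeps replicates 1 and 2, which share a number. If numbers mark animals, the double mutants are then 1 animal, and the p-values say nothing about the spread between double mutant animals.

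**Figure D1:**
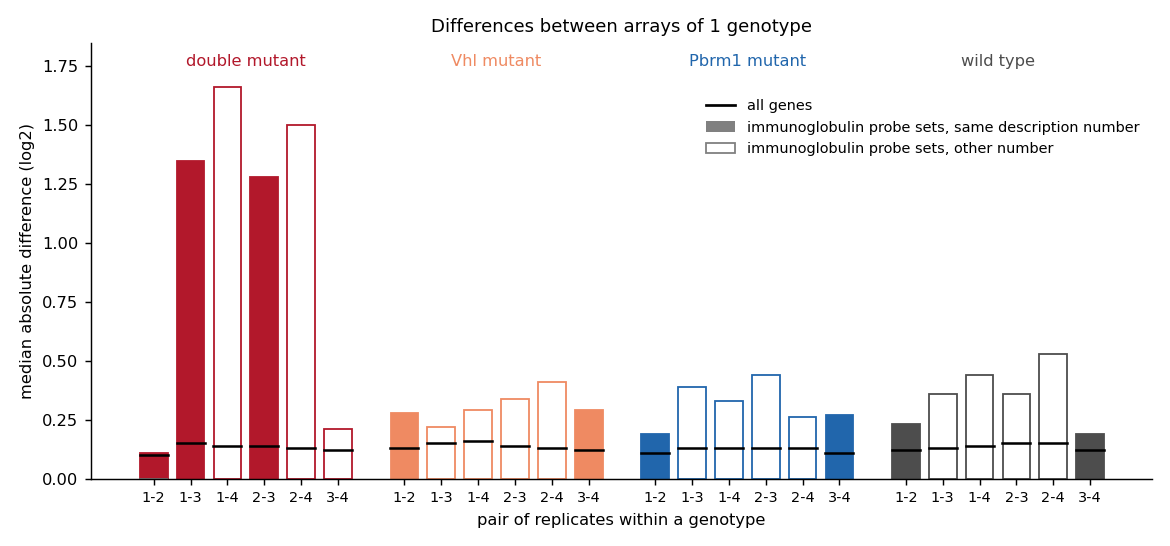
Bars give the median absolute difference in log2 level over 24 immunoglobulin probe sets for each pair of replicates of a genotype (filled, same description number; open, other number; probe sets chosen by their mean over all arrays), and black lines the same over all genes. Double mutant replicates 1 and 2 (0.11) and replicates 3 and 4 (0.21) pair closely, while pairs across them reach 1.66.

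Of the 19 immunoglobulin genes 7 were higher in double mutants than in wild type, as was Jchain. Of the 26 members, 8 were called higher (6.64% of all genes were) and 0 lower (5.56% of all genes), and at an unadjusted p under 0.05 12 were higher (11.8% of all genes) and 0 lower (11.6%). The 8 were Jchain, the mu heavy chain gene Ighm, the lambda segment Iglv1 and the kappa segments Igkv5-43, Igkv15-103, Igkv9-120, Igkv4-72 and Igkv4-70. The median log2 fold change of the members was 0.33, against -0.02 for all genes. Leaving out double mutant replicates 3 and 4 left 4 calls (Jchain, Igkv9-120, Igkv4-72 and Igkv5-43), with double mutant arrays that share a number. Leaving out replicate 3 or replicate 4 alone left 5 and 4. Leaving out replicate 1 or replicate 2 gave 11 and 12. The share of all genes called can change with the arrays left out and is not given for these fits. These counts alone therefore do not show a change particular to the members.

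Jchain had log2 levels of 5.94, 5.95, 6.96 and 6.79 in double mutants (replicates 1 to 4), against 3.67, 4.2, 4.36 and 4.67 in wild type. All double mutant arrays lay above all wild-type arrays, with replicates 3 and 4 the highest of the series. The log2 fold change was 2.20 ± 0.22 SE, or 4.59-fold (limma adjusted p = 9e-07), and it was 1.72 without replicates 3 and 4 (adjusted p = 1.7e-05).

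Igkv9-120, a kappa variable segment, had levels of 6.58, 6.16, 7.97 and 7.81 in double mutants, against 2.97, 3.22, 4.14 and 4.23 in wild type. The groups did not overlap, and the wild-type mean of 3.64 was under the background limit of 3.72, so the size of the difference rests on a level that may be background. The log2 fold change was 3.52 ± 0.42 SE (limma adjusted p = 5.6e-06) and 2.73 without double mutant replicates 3 and 4 (adjusted p = 0.00019).

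Igkv4-72 had levels of 6.26, 6.50, 8.17 and 8.03 in double mutants, against 4.71, 4.64, 4.42 and 4.49 in wild type, again without overlap. Its log2 fold change was 2.70 ± 0.35 SE, or 6.52-fold (limma adjusted p = 1.8e-05), and 1.81 without replicates 3 and 4 (adjusted p = 7.3e-05). Igkv5-43 had levels of 9.96, 10.01, 10.91 and 10.83 in double mutants and 8.83, 8.53, 9.13 and 9.86 in wild type. The lowest double mutant array and the highest wild-type array, replicate 4, were close to each other, and the log2 fold change was 1.35 ± 0.25 SE (limma adjusted p = 0.00078), or 0.89 without double mutant replicates 3 and 4 (adjusted p = 0.031).

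These 4 genes were also called with arrays averaged per number and double mutant replicate 3 put with replicate 4 (adjusted p of 0.00069 for Jchain to 0.026 for Igkv5-43), as was Iglv1. The other 4 calls ended without double mutant replicates 3 and 4. Igkv4-70 had levels of 3.61, 3.63, 6.40 and 6.10 in double mutants, against 3.13, 3.17, 3.09 and 3.29 in wild type. Replicates 1 and 2 lay under the background limit and close to wild type, and replicates 3 and 4 far above. Its log2 fold change of 1.81 ± 0.47 SE (limma adjusted p = 0.014) became 0.45 without them (adjusted p = 0.18). In the same way Ighm missed the threshold at 0.26 (adjusted p = 0.42), Igkv15-103 at 0.27 (adjusted p = 0.57) and Iglv1 at 0.44 (adjusted p = 0.27), against 0.63 ± 0.17 SE (adjusted p = 0.018), 1.06 ± 0.31 SE (adjusted p = 0.026) and 0.64 ± 0.19 SE (adjusted p = 0.034) on all arrays. Leaving out replicate 3 alone or replicate 4 alone also ended the calls of Ighm, Igkv15-103 and Iglv1, and leaving out replicate 4 alone ended that of Igkv4-70. Of the wild-type arrays, omitting replicate 1 ended the calls of Igkv15-103 and Iglv1, and omitting replicate 2 those of Ighm and Iglv1.

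Some members were high on double mutant replicates 3 and 4 without being called. Igkv4-91 had levels of 4.88, 5.08, 7.33 and 7.53 in double mutants, against 4.88, 4.78, 5.13 and 5.17 in wild type (log2 fold change 1.27 ± 0.45 SE, limma adjusted p = 0.072). Ighg3, the constant region of an IgG subclass, had levels of 3.53, 3.6, 5.59 and 5.38 in double mutants, against 3.75, 3.47, 3.85 and 3.31 in wild type (0.96 ± 0.36 SE, adjusted p = 0.092), with the wild-type mean under the background limit. Igkv4-59 had levels of 2.53, 2.36, 4.41 and 4.22 in double mutants and of 2.02 to 2.81 in wild type (adjusted p = 0.092, group means under the background limit). Without replicates 3 and 4 the differences of Ighg3 and Igkv4-59 from wild type were -0.03 and -0.02 (adjusted p = 0.96 and 0.98), and that of Igkv4-91 had an adjusted p of 1.0. In these genes double mutant replicates 1 and 2 lay in or near the wild-type range, while replicates 3 and 4 lay well above it.

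**Figure D2:**
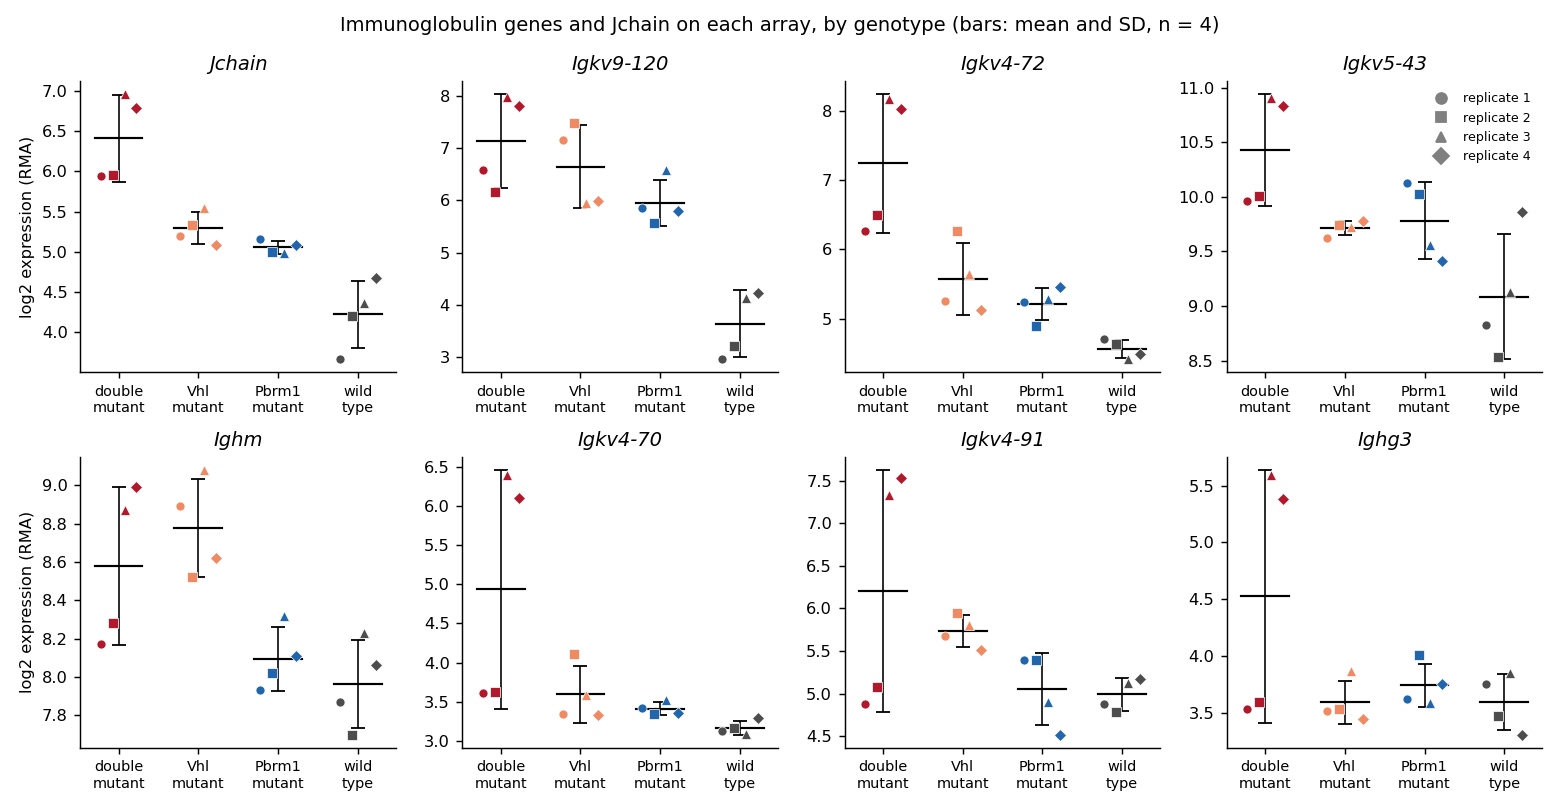
Log2 expression (RMA) of 8 members on each of the 16 arrays, with 1 point per array, marker shapes for replicates 1 to 4, and bars for the mean and SD of a genotype (n = 4); each panel has its own axis. Jchain, Igkv9-120 and Igkv4-72 lie above wild type on all mutant arrays, and double mutant replicates 3 and 4 are the highest arrays for Igkv4-70, Igkv4-91 and Ighg3.

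In Vhl mutants 3 of 26 members were called higher than in wild type (2.04% of all genes were) and 0 lower (1.79% of all genes). They were Jchain, Ighm and Igkv9-120, and at an unadjusted p under 0.05 8 members were higher (7.48% of all genes) and 0 lower (8.93%). Jchain had levels of 5.20, 5.33, 5.55 and 5.09 in Vhl mutants, all above the highest wild-type level of 4.67 (log2 fold change 1.07 ± 0.22 SE, or 2.09-fold, limma adjusted p = 0.0083). Igkv9-120 had levels of 7.16, 7.47, 5.95 and 5.99, all above the wild-type maximum of 4.23 (3.0 ± 0.41 SE, adjusted p = 0.00017). Here Vhl mutant replicates 1 and 2, which share a number, lay above replicates 3 and 4.

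Ighm, which encodes the constant part of the IgM heavy chain, had levels of 8.89, 8.52, 9.08 and 8.62 in Vhl mutants, against 7.87, 7.70, 8.23 and 8.06 in wild type. The groups did not overlap, and the log2 fold change was 0.81 ± 0.17 SE, or 1.76-fold (limma adjusted p = 0.0079). These Vhl mutant calls were kept without any single array of the groups compared. Leaving out wild-type replicates 1 and 2 together ended the calls of Jchain and Ighm and left 1, and averaging the probe sets of each gene ended that of Ighm. With arrays averaged per number, and double mutant replicate 3 put with replicate 4 as the levels pair them, Jchain (1.07, adjusted p = 0.11) and Ighm (0.81, adjusted p = 0.11) were not called and Igkv9-120 was (adjusted p = 0.027), in a fit that called fewer genes in all (0.897% of them in either direction).

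In Pbrm1 mutants 2 of 26 members were called higher than in wild type (1.59% of all genes were) and 0 lower (2.45% of all genes), with 4 higher (6.6% of all genes) and 0 lower (9.45%) at an unadjusted p under 0.05. Igkv9-120 had levels of 5.85, 5.56, 6.57 and 5.79 in Pbrm1 mutants, all above that maximum as well (log2 fold change 2.30 ± 0.41 SE, limma adjusted p = 0.0021). Jchain had levels of 5.16, 5.0, 4.98 and 5.09, a narrow range above the 3.67 to 4.67 of wild type (0.83 ± 0.22 SE, or 1.78-fold, adjusted p = 0.039). The Jchain call was lost when any 1 of 7 of the 8 arrays compared was left out, which left 1 member called; omitting wild-type replicate 4 kept it. Without wild-type replicates 1 and 2 together neither gene was called, nor was either with arrays averaged per number in that way (Igkv9-120 2.3, adjusted p = 0.082, and Jchain 0.83, adjusted p = 0.2). The comparisons with wild type share the same wild-type arrays.

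**Figure D3:**
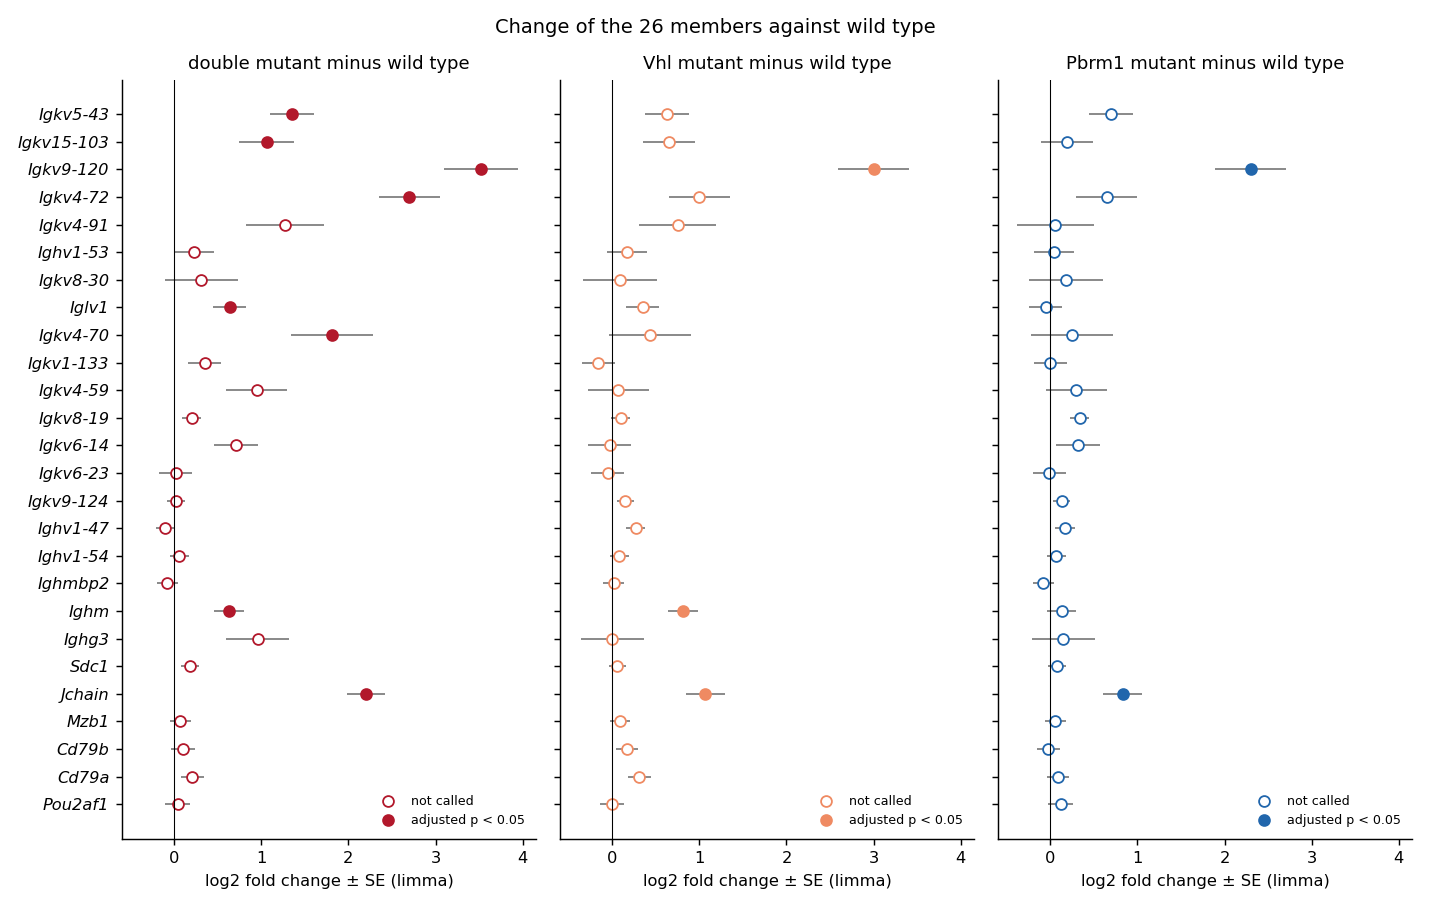
Log2 fold change with its SE (limma) of each of the 26 members in double mutants, Vhl mutants and Pbrm1 mutants against wild type, on 1 scale, with filled points for adjusted p under 0.05. Igkv9-120 and Jchain are called in all 3 comparisons, and Ighmbp2, Mzb1, Pou2af1, Cd79a, Cd79b and Sdc1 in none.

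Strain and genotype change together in every comparison above, and the mutant groups share one strain label. On all 12 mutant arrays 4 members lay above all 4 wild-type arrays: Jchain, Igkv4-70, Igkv4-72 and Igkv9-120, while 0.388% of all genes did. For Igkv4-70 the means of wild type and of both single mutants were under the background limit. Its ranges were apart from wild type by only 0.04 in Vhl mutants and 0.06 in Pbrm1 mutants. In single comparisons the groups did not overlap, with the mutant higher, for 7 members in double mutants (9.21% of all genes), 8 in Vhl mutants (5.07%) and 5 in Pbrm1 mutants (5.0%), some of them under the background limit (Ighv1-47 and Igkv6-14, for example). Igkv9-120 was not called between any pair of mutant groups: the log2 differences were 0.52 ± 0.42 SE in double against Vhl mutants (limma adjusted p = 0.55), 1.22 ± 0.42 SE in double against Pbrm1 mutants (adjusted p = 0.071) and 0.70 ± 0.41 SE in Vhl against Pbrm1 mutants (adjusted p = 0.40). A missed threshold does not show that the mutant groups are alike.

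Jchain was called between groups that share a strain label. That label is a mixed background, in which animals need not carry the same alleles, so a strain difference between mutant groups was not tested. Whether Jchain differed from Igkv9-120 in being called between these groups was not tested either. Jchain was higher in double mutants than in Vhl mutants (log2 fold change 1.13 ± 0.22 SE, limma adjusted p = 0.0031) and than in Pbrm1 mutants (1.37 ± 0.22 SE, adjusted p = 0.00027), without overlap in either case, and was not called between Vhl and Pbrm1 mutants (0.24 ± 0.22 SE, adjusted p = 0.66). Without double mutant replicates 3 and 4 the difference from Vhl mutants was 0.66 and no longer called (adjusted p = 0.081), and that from Pbrm1 mutants was 0.89 (adjusted p = 0.0084). Igkv4-72 had the same order of double over single mutants: its levels were 5.25, 6.27, 5.64 and 5.12 in Vhl mutants and 5.24, 4.90, 5.28 and 5.45 in Pbrm1 mutants, and double mutants were higher by 1.70 ± 0.35 SE (adjusted p = 0.0043) and 2.05 ± 0.35 SE (adjusted p = 0.00041). Without replicates 3 and 4 these became 0.81 (adjusted p = 0.074) and 1.16 (adjusted p = 0.0049). With arrays averaged per number, and replicate 3 put with replicate 4, neither gene was called in double against Vhl mutants (Jchain 1.12, adjusted p = 0.055, and Igkv4-72 1.67, adjusted p = 0.064), and both were against Pbrm1 mutants (adjusted p = 0.011 and 0.014). Against wild type Igkv4-72 was not called in either single mutant (1.0 ± 0.35 SE, adjusted p = 0.12 in Vhl mutants, and 0.65 ± 0.35 SE, adjusted p = 0.38 in Pbrm1 mutants).

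In all, 2 of 26 members were called higher in double than in Vhl mutants (3.8% of all genes were) and 1 lower (2.55% of all genes). The lower one, Ighv1-47, had levels of 2.14 to 2.38 in double mutants and 2.54 to 2.74 in Vhl mutants, all under the background limit, with an adjusted p of 0.05 after rounding that passed in 6 of 25 alternatives. Without double mutant replicates 3 and 4 no member was called higher in double than in Vhl mutants, and Ighm (-0.55 ± 0.16 SE, limma adjusted p = 0.049) and Igkv4-91 (-0.76 ± 0.21 SE, adjusted p = 0.045) were called lower. The probe sets of Ighm differed in this: in the fit of all probe sets without those arrays they ran over -0.76 to 1.4 against Vhl mutants, and the 1 called was higher in double mutants (1.4 ± 0.24 SE, adjusted p = 0.0054). Against Pbrm1 mutants 4 members were called higher in double mutants (6.82% of all genes were) and 0 lower (3.37% of all genes): Jchain, Igkv4-72, Igkv4-70 (1.56 ± 0.47 SE, adjusted p = 0.04, Pbrm1 mutants under the background limit) and Iglv1 (0.69 ± 0.19 SE, adjusted p = 0.024). Without double mutant replicates 3 and 4, Igkv4-70 (0.20, adjusted p = 0.64) and Iglv1 (0.49, adjusted p = 0.20) were not called, and without replicate 3 alone 2 calls were left. Igkv4-70 also lost its call without double mutant replicate 4 or any 1 Pbrm1 mutant array, and Iglv1 without Pbrm1 mutant replicate 1 or 4. Leaving out double mutant replicate 1 or 2 raised the count to 8 or 9 against Pbrm1 mutants and to 5 or 7 against Vhl mutants, again without the share of all genes.

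Between Vhl and Pbrm1 mutants 1 member was called higher in Vhl mutants (4.71% of all genes were), a share near that of all genes, and 0 lower (2.75% of all genes). It was Ighm, at 8.78 ± 0.25 in Vhl mutants against 8.09 ± 0.17 in Pbrm1 mutants (SD, n = 4, log2 fold change 0.68 ± 0.17 SE, limma adjusted p = 0.014), and the call ended without Vhl mutant replicate 3. The interaction, by which double mutants depart from both single changes added up, was called for 0 members (1.78% of all genes were called above and 0.852% below 0). It also uses the wild-type arrays, so a strain difference shared by all mutant groups enters it, and genotype and strain cannot be told apart here either. At an unadjusted p under 0.05 limma gave 1 member above 0 (9.63% of all genes), Igkv4-72 (1.05 ± 0.49 SE), and 2 below (6.24%), Ighv1-47 and Igkv9-120 (-1.79 ± 0.59 SE). Without double mutant replicates 3 and 4 Igkv9-120 was called below 0. In the fit of all probe sets 1 probe set of Ighm, not the one used for the gene, was called above 0 (1.33 ± 0.27 SE, adjusted p = 0.023), where 1.31% of all probe sets were called in either direction.

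Of the 6 B-lineage members only Jchain was called in any of the 7 comparisons, and the other 5 were not. Cd79a and Cd79b encode the signalling chains of the B cell receptor. Cd79a had levels of 4.09, 3.90, 4.26 and 4.33 in double mutants, 4.07 to 4.39 in Vhl mutants, 3.89 to 4.14 in Pbrm1 mutants, against 3.70, 3.84, 4.14 and 4.11 in wild type (double mutants against wild type 0.21 ± 0.13 SE, limma adjusted p = 0.37). Cd79b averaged 4.34 ± 0.11 in double mutants, 4.41 ± 0.25 in Vhl mutants, 4.21 ± 0.07 in Pbrm1 mutants, against 4.24 ± 0.22 in wild type (SD, n = 4). The groups overlapped for both genes.

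Mzb1, a chaperone of the endoplasmic reticulum needed for antibody secretion, averaged 4.90 ± 0.12 in double mutants, 4.93 ± 0.22 in Vhl mutants, 4.89 ± 0.12 in Pbrm1 mutants, against 4.84 ± 0.10 in wild type. Pou2af1, the coactivator of octamer-dependent transcription in B cells, averaged 3.94 ± 0.11, 3.90 ± 0.19, 4.03 ± 0.28 and 3.90 ± 0.08 in the same order. Sdc1, a proteoglycan that marks plasma cells and is also made by epithelium, averaged 5.40 ± 0.13, 5.28 ± 0.10, 5.31 ± 0.08 and 5.22 ± 0.12. Their log2 fold changes in double mutants against wild type were 0.07 ± 0.12 SE, 0.04 ± 0.14 SE and 0.18 ± 0.10 SE, and the ranges of the 4 groups overlapped for each. On the 2 double mutant arrays with the highest antibody genes Mzb1 read 4.90 and 5.04, Cd79a 4.26 and 4.33, and Pou2af1 3.87 and 4.08. Ighmbp2, the helicase, averaged 5.37 ± 0.16 in double mutants and 5.44 ± 0.09 in wild type.

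**Figure D4:**
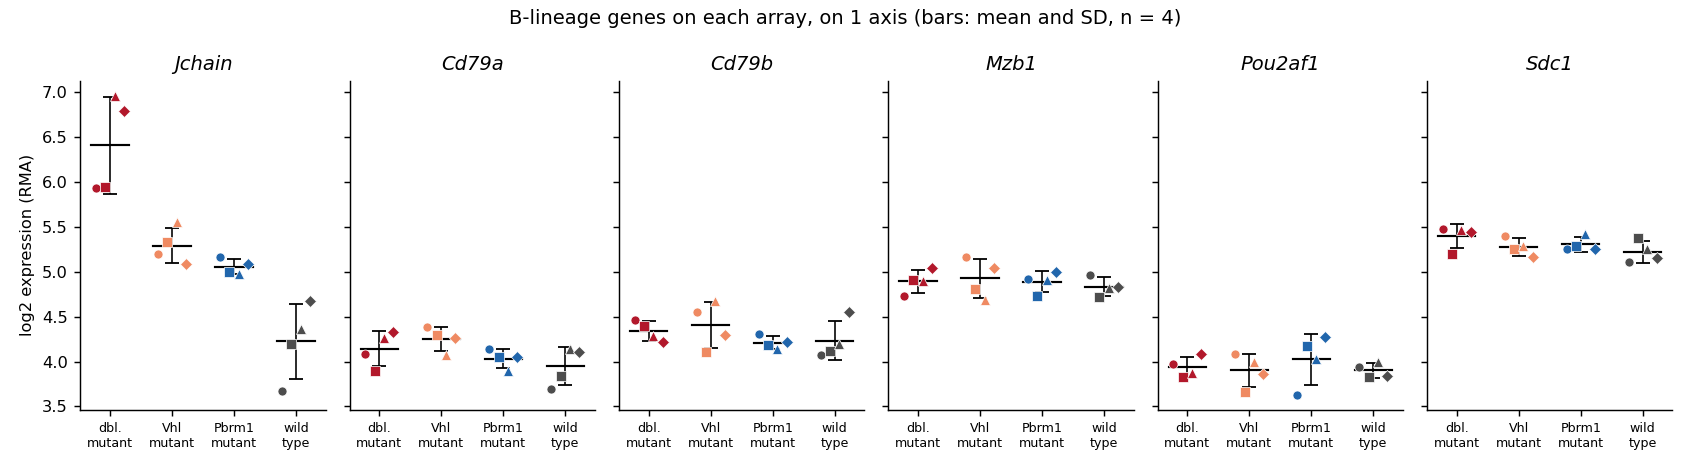
Log2 expression (RMA) of the 6 B-lineage genes on each array, with marker shapes for replicates 1 to 4 and bars for the mean and SD of a genotype (n = 4); all panels share an axis so that changes can be set side by side, and levels of different probe sets are not comparable. Jchain spans 3.67 to 6.96, while the groups overlap for Cd79a, Cd79b, Mzb1, Pou2af1 and Sdc1.

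The constant region gene Ighm has 7 probe sets on this array, and they disagreed. In a fit of all 41345 probe sets their log2 fold change in double mutants against wild type ran between 0.33 and 2.08, with 3 of 7 called, or 1 without double mutant replicates 3 and 4 (7.91% of all probe sets were called in either direction). In Vhl mutants against wild type it ran between -0.04 and 1.56, with 2 of 7 called (1.73%), and in Pbrm1 mutants between 0.02 and 0.53, with 0 of 7 called (2.67%). The probe set used above, the one of highest mean, changed by 0.62 in double mutants in that fit (adjusted p = 0.047). One of the others read 6.68, 6.91, 7.17 and 7.05 in double mutants, 5.02 to 5.66 in Vhl mutants, 4.70 to 5.57 in Pbrm1 mutants, against 4.70, 4.70, 4.97 and 5.11 in wild type. It was high on all double mutant arrays, replicates 1 and 2 included (log2 fold change 2.08 ± 0.19 SE against wild type, and 1.93 ± 0.24 SE without replicates 3 and 4), and it is the probe set called for the interaction. A further one read 7.06, 6.88, 9.95 and 9.57 in double mutants and 6.71 to 7.03 in wild type, so that only replicates 3 and 4 stood out. Probe sets listed for Ighm may cover different stretches of the heavy chain locus, so a level for the whole gene is uncertain.

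The 3 probe sets of Igkv5-43 were all called higher in double mutants, by 0.99 to 2.82 (one of them under the background limit in every group), where 7.91% of all probe sets were called in either direction. In either single mutant 0 of 3 were called. Without double mutant replicates 3 and 4 none of the 3 was called in this fit (0.68 to 1.23), the brightest at 0.89 with a limma adjusted p of 0.099. The second of them read 4.71, 4.69, 8.40 and 7.29 in double mutants, against 2.59, 3.09, 3.23 and 4.97 in wild type. Its means of 3.47 in wild type, 3.29 in Vhl mutants and 3.15 in Pbrm1 mutants were under the background limit. The size of its difference therefore rests on levels that may be background. The second probe set of Ighg3 read 3.41, 3.43, 3.49 and 3.65 in double mutants and 3.16 to 4.16 in wild type, and did not show the high level of replicates 3 and 4.

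A further 5 probe sets are listed for several immunoglobulin genes at once, so none of them can be assigned to a member. In double mutants 4 of 5 were called higher than wild type, with or without replicates 3 and 4, with log2 fold changes of 0.16 to 2.78 over the 5 (-0.05 to 2.21 without them), in Vhl mutants 2 of 5 (0.34 to 1.57) and in Pbrm1 mutants 1 of 5 (-0.01 to 1.24). On all arrays 7.91%, 1.73% and 2.67% of all probe sets were called in either direction in these comparisons. Some of the 5 list the same gene, Ighm for example, so they are not independent. The brightest, listed for kappa segments and a kappa joining segment, read 10.66, 10.69, 11.97 and 11.94 in double mutants, 9.96 to 10.35 in Vhl mutants, 9.74 to 10.12 in Pbrm1 mutants, against 8.34, 7.93, 9.10 and 9.37 in wild type. All 12 mutant arrays lay above the wild-type arrays, and double mutants above both single mutants. Another, listed for heavy chain genes, read 8.18, 8.07, 10.68 and 10.76 in double mutants, 7.42 to 7.94 in Vhl mutants, 6.85 to 7.57 in Pbrm1 mutants, against 6.51, 5.93, 6.97 and 7.25 in wild type.

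**Figure D5:**
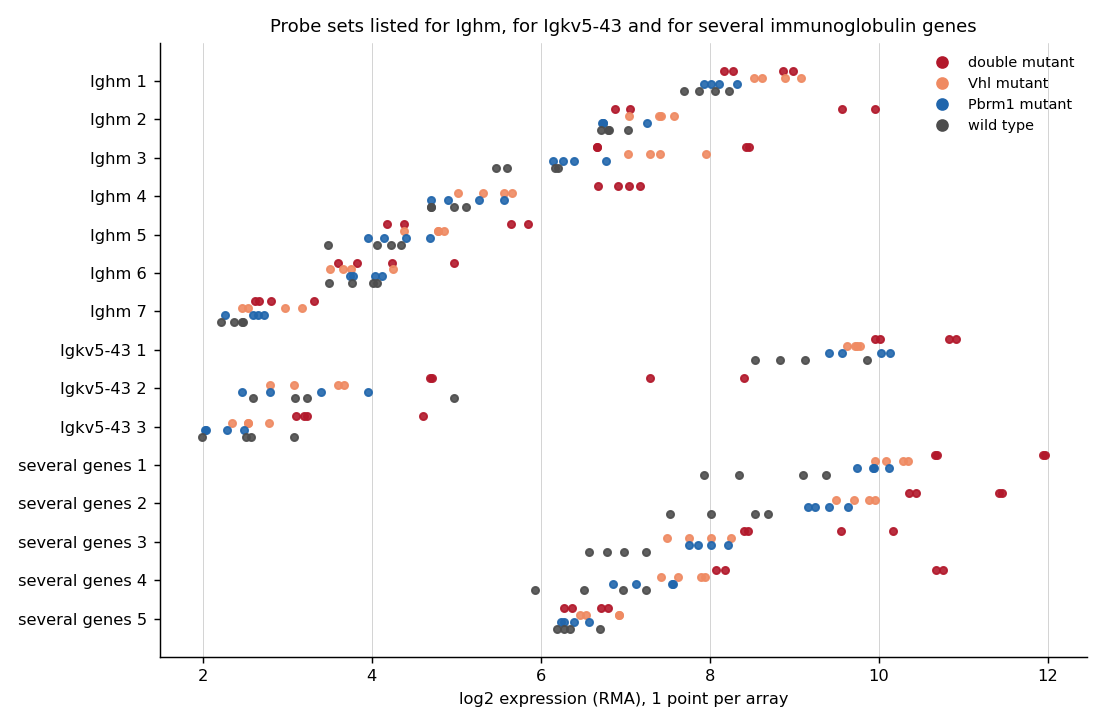
Log2 expression (RMA) on each array, 1 point per array, of the 7 probe sets listed for Ighm, the 3 listed for Igkv5-43 and the 5 listed for several immunoglobulin genes, each set ordered by mean and each row running from double mutant at the top to wild type at the bottom. Probe sets of one gene differ in whether all double mutant arrays or only 2 of them are high.

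The called kappa segments were spread along their locus on chromosome 6. Counted from the joining segments among 162 kappa segments in RefSeq, the 13 measured ones stood at places 15 (Igkv6-14) to 157 (Igkv1-133). The called ones were at places 46 (Igkv5-43), 80 (Igkv4-70), 83 (Igkv4-72), 124 (Igkv15-103) and 143 (Igkv9-120). The Igkv4 family had 4 members, Igkv4-59, Igkv4-70, Igkv4-72 and Igkv4-91, and each of them had its highest levels on double mutant replicates 3 and 4. Segments of one family resemble each other in sequence, so their probe sets may share RNA and are not independent. The probe set listed for Igkv9-124 alone, of the same family as Igkv9-120 and 4 places from it, read 2.24 to 2.61 in double mutants and 2.25 to 2.62 in wild type, under the background limit throughout. That segment is also listed on one of the bright probe sets of several genes.

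Of the 17 variable segments 8 were under 3.72 in every group at the probe set listed for them alone: Ighv1-47, Ighv1-54, Igkv1-133, Igkv4-59, Igkv6-14, Igkv6-23, Igkv8-19 and Igkv9-124. Ighv1-47, Ighv1-54, Igkv6-23 and Igkv9-124 are also listed on bright probe sets of several genes, so a low level here does not show that their RNA was absent. Among all 26 members 15 were above it in every group and 3 in some (Igkv4-70, Igkv9-120 and Ighg3). Ighv1-53 and Igkv8-30 were above it and not called: Ighv1-53 averaged 5.17 ± 0.68 in double mutants, 5.14 ± 0.18 in Vhl mutants, 5.01 ± 0.26 in Pbrm1 mutants, against 4.97 ± 0.06 in wild type, and Igkv8-30 4.30 ± 1.17, 4.05 ± 0.39, 4.14 ± 0.40 and 3.96 ± 0.48. Igkv15-103 had levels of 6.21, 6.18, 7.39 and 7.99 in double mutants, 6.28 to 6.89 in Vhl mutants, 5.79 to 6.42 in Pbrm1 mutants, against 5.55, 6.23, 5.94 and 5.98 in wild type. Iglv1, a lambda segment on chromosome 16, had levels of 4.41, 4.16, 5.03 and 4.36 in double mutants, 3.95 to 4.47 in Vhl mutants, 3.42 to 4.07 in Pbrm1 mutants, against 3.61, 3.70, 3.97 and 4.10 in wild type.

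Of 16 genes of antibody-secreting cells outside the members, 1 was called higher in double mutants than in wild type and 1 lower, near the shares of all genes (6.64% and 5.56%), with a median log2 fold change of -0.04 (all genes -0.02) and 3 genes under the background limit. In Vhl mutants 1 was called higher and 2 lower (2.04% and 1.79% of all genes), and in Pbrm1 mutants 0 and 1 (1.59% and 2.45%). Slamf7, a receptor of plasma cells and other leukocytes, averaged 6.38 ± 0.15 in double mutants, 6.54 ± 0.09 in Vhl mutants, 4.86 ± 0.24 in Pbrm1 mutants, against 5.67 ± 0.21 in wild type (SD, n = 4), called higher in the first 2 (0.72 without double mutant replicates 3 and 4, adjusted p = 0.0072) and lower in Pbrm1 mutants (log2 fold change -0.81 ± 0.12 SE, limma adjusted p = 0.00048). Creld2, an endoplasmic reticulum stress gene that many secretory cells express, was lower in double mutants (-0.61 ± 0.13 SE, adjusted p = 0.0035; -0.44 without replicates 3 and 4, adjusted p = 0.085) and Vhl mutants, and Xbp1, the transcription factor of secretory cells, lower in Vhl mutants (-0.50 ± 0.12 SE, adjusted p = 0.025). The plasma cell receptor Tnfrsf17 read 3.56 to 3.86 in double mutants and 3.25 to 4.24 in wild type, and Irf4, a factor plasma cells need, 4.50 to 4.90 and 4.02 to 4.71.

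Of 19 B cell genes tested outside the members, 3 were called higher in double mutants than in wild type (Ly86, Cd24a and Ebf1; 6.64% of all genes) and 0 lower (5.56%). In Vhl mutants 1 was called higher (Ly86; 2.04% of all genes) and in Pbrm1 mutants 0 (1.59%), and without double mutant replicates 3 and 4 the 3 were called as well, with Cd55 lower (-0.71 ± 0.17 SE, adjusted p = 0.012). The median log2 fold change in double mutants was 0.07, and 3 genes of the list, Ms4a1 among them, averaged under the background limit. Ly86, which macrophages also express, averaged 7.36 ± 0.10 in double mutants and 6.35 ± 0.22 in wild type, and Cd24a, also a gene of tubule epithelium, 10.11 ± 0.11 and 9.47 ± 0.09. Ebf1, a transcription factor of early B cells, averaged 6.49 ± 0.11 in double mutants, 6.30 ± 0.06 in Vhl mutants, 5.97 ± 0.14 in Pbrm1 mutants, against 6.02 ± 0.09 in wild type (double mutants against wild type 0.47 ± 0.09 SE, limma adjusted p = 0.0013, and 0.39 without replicates 3 and 4, adjusted p = 0.043). Ms4a1, the B cell antigen CD20, read 3.06 to 3.31 in double mutants, 3.33 to 3.81 in Vhl mutants, 3.14 to 3.36 in Pbrm1 mutants, against 3.08 to 3.56 in wild type, and Pax5, the factor of B cell identity, 4.05 to 4.45 in double mutants and 3.99 to 4.33 in wild type. Averaged over the B cell list, an array lay at 4.96 to 5.05 in double mutants, 4.90 to 5.07 in Vhl mutants, 4.85 to 4.98 in Pbrm1 mutants, against 4.81 to 4.91 in wild type. The part of any cell type in the antibody gene differences was not tested.

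Of 18 genes that bind or carry antibody, or act on B cells, 6 were called higher in double mutants than in wild type (6.64% of all genes) and 1 lower, or 5 and 1 without replicates 3 and 4. In Vhl mutants 4 were called higher (2.04% of all genes) and 0 lower, and in Pbrm1 mutants 1 and 2 (1.59% and 2.45%). Pigr, the epithelial receptor that carries J chain-bearing antibody across the cell, had levels of 11.20, 11.26, 10.93 and 10.87 in double mutants, 9.54 to 10.09 in Vhl mutants, 10.35 to 10.64 in Pbrm1 mutants, against 9.48, 9.45, 8.77 and 8.79 in wild type. It was called in all 3 comparisons with wild type, at 1.94 ± 0.16 SE in double mutants (limma adjusted p = 3.7e-08, and 2.11 without replicates 3 and 4), 0.71 ± 0.15 SE in Vhl mutants (adjusted p = 0.011) and 1.38 ± 0.15 SE in Pbrm1 mutants (adjusted p = 1.2e-05). Unlike Jchain, it was lower on double mutant replicates 3 and 4 than on replicates 1 and 2.

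Ccl28, a chemokine of epithelia that attracts antibody-secreting cells, had levels of 6.81, 6.45, 9.40 and 9.28 in double mutants, 6.43 to 6.65 in Vhl mutants, 6.15 to 6.75 in Pbrm1 mutants, against 6.18 to 6.64 in wild type. Replicates 3 and 4 of the double mutants, the arrays with the highest antibody genes, stood alone, and replicates 1 and 2 lay in or near the range of the other groups (1.58 ± 0.48 SE against wild type, adjusted p = 0.035). Without replicates 3 and 4 it was not called (0.17 ± 0.16 SE, adjusted p = 0.66). Tnfsf13b, the B cell survival factor BAFF, was higher in double mutants (0.84 ± 0.11 SE, adjusted p = 1.8e-05, and 0.84 without replicates 3 and 4) and Vhl mutants (0.66 ± 0.11 SE, adjusted p = 0.0011). Fcer1g, the signalling chain of Fc receptors, was also higher in double mutants (1.10 ± 0.13 SE, and 0.92 without replicates 3 and 4) and Vhl mutants (0.78 ± 0.12 SE), and Fcgr2b, the inhibitory Fc receptor, lower in Pbrm1 mutants (-0.79 ± 0.06 SE, adjusted p = 1.6e-07). Cxcl13, a chemokine of B cell follicles, read 4.97 to 5.51 in double mutants and 4.68 to 5.68 in wild type.

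Markers of other immune cells gave unequal counts. Of 16 macrophage and myeloid markers 11 were called higher in double mutants than in wild type (10 without replicates 3 and 4), 14 in Vhl mutants and 1 in Pbrm1 mutants, with none lower. Of all genes 6.64%, 2.04% and 1.59% were called higher in these comparisons and 5.56% lower in double mutants. The mean over the list ran over 6.44 to 6.72, 6.30 to 6.68 and 5.68 to 5.72 in these groups against 5.68 to 5.87 in wild type. Of 15 T and NK cell markers 1 was called in double mutants (Thy1, and 0 without replicates 3 and 4) and 0 in the single mutants, a share near that of all genes, and of 10 neutrophil markers 0 in any of these comparisons. Of 3 lymph node and spleen stroma markers 1 was called, Clu in double mutants, a gene also made by tubules. Slc4a1, the red cell anion exchanger and the single red cell marker tested, was lower in double mutants (-1.25 ± 0.17 SE, and -1.26 without replicates 3 and 4). Of 9 fat markers Lpl was lower in double mutants, and of 10 tubule markers 1 was called higher and 4 lower there. Without replicates 3 and 4 Slc4a1, Lpl (-0.9) and Clu (0.5) were called as well, and the tubule counts were again 1 and 4. Their part in the antibody gene differences was not tested.

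Among genes that are no member, the joining segment Igkj1 had levels of 4.91, 4.74, 7.35 and 6.61 in double mutants, 5.24 to 5.6 in Vhl mutants, 4.41 to 4.79 in Pbrm1 mutants, against 4.16, 4.30, 4.73 and 3.62 in wild type (double mutants against wild type 1.73 ± 0.42 SE, limma adjusted p = 0.0088, and 0.62 without replicates 3 and 4, adjusted p = 0.12). It was the one called of 4 other immunoglobulin locus and surrogate chain genes. The heavy chain segment Igh-VS107 had levels of 6.58 to 7.13 in double mutants, 6.54 to 7.06 in Vhl mutants, 6.28 to 6.74 in Pbrm1 mutants, against 5.10 to 6.01 in wild type, so that, as for Igkv9-120, all mutant arrays lay above all wild-type arrays while the mutant groups overlapped.

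Over the 16 arrays the genes outside the members whose levels were most like those of Jchain were Apoa4 (Pearson r = 0.945), Rpl15 (0.943), Cdk18 (0.934), Ccr2 (0.933) and Slc22a26 (0.929). Those most like Igkv9-120 were Igh-VS107 (0.942), Mrtfb (0.903), Rab11b (0.902), Pde7b (0.888) and Pgam1 (0.884). These arrays share the difference between groups, which can give high values by itself. Over deviations from the group means the closest to Jchain were Vps28 (0.909), Extl1 (0.891) and Slc22a26 (0.891), and the members ran between -0.415 (Ighv1-47) and 0.780 (Igkv15-103). Cd79a reached 0.656 and Mzb1 -0.07 on that measure.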

How the data were processed

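Trizol-extracted total RNA from mouse kidney cortex was labelled with biotin for Affymetrix arrays, per the labels' protocols. Per the submitters' processing notes, RMA and Expression Console 1.4 of Affymetrix gave the deposited values, which are on a log2 scale. Groups came from the sample titles. Of 41345 probe sets, 23521 list 1 symbol, 1814 several and 16010 none; the brightest probe set of each gene was used (22180 genes). The array's build is not given in the sources used here. The members, gene lists and tests were chosen with earlier results of these data known.

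The limma fit (version 3.58.1, R 4.3.3) covered all genes, with 4 groups as fixed effects, the description number as a random block (correlation 0.0838) and a prior variance that follows mean expression, and p-values were Benjamini-Hochberg adjusted over all genes. That correlation is a single value for all genes and takes the numbers as labelled. For antibody genes the double mutant arrays paired far more closely, so the p-values of members there may be too small. Because the block gives double mutant replicate 4 more weight, fitted fold changes can depart a little from plain differences of means. The steps were tested on simulated data. Named were the constant regions, the B-lineage genes, segments called in any of 7 comparisons, the 5 segments of highest mean and up to 4 called genes of each list; other genes named with values were chosen after their values were seen, as was Igkv9-120 for the likeness measure in place of Igkc, which has no probe set of its own here. The number of arrays limits the precision. Alternatives covered block, averaging, filter, probe sets, scaling, weights, trend, samples, minimum size and omitted arrays. Tables used pandas 2.3.3 and numpy 2.4.6 in Python 3.11.15, and figures matplotlib 3.10.9.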

Additional observations from a re-analysis of the deposited data

Results flagged for a closer look

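Within a genotype 5 values lay far from the other 3 arrays, of 104 sets of 4 arrays examined; chance flags about 1 in 20. Sdc1 read 5.20 on double mutant replicate 2, against 5.44 to 5.48 on the others. Ighv1-53 read 4.88 on wild-type replicate 1 (others 4.99 to 5.0). Ighv1-54, under the background limit, read 2.23 on double mutant replicate 3 (others 2.05 to 2.08) and 1.93 on wild-type replicate 4 (others 2.07 to 2.09). Igkv8-19, also under that limit, read 2.31 on wild-type replicate 3 (others 2.67). The split of double mutant arrays into 1 and 2 against 3 and 4 is not of this kind, since it leaves no single array apart.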

How the results depend on the processing

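The 21 member calls were recomputed under the alternatives, giving 551 values, of which 452 kept the call, 99 lost it and 0 changed sign. Jchain and Igkv4-72 (double mutants against wild type and against Pbrm1 mutants), Igkv5-43 (double mutants against wild type) and Igkv9-120 (double and Vhl mutants against wild type) kept their calls under all alternatives run on the gene table. Of 272 counts 219 stayed within 1.5 times the count reported; where they did not, the cause was not tested beyond the smaller number of arrays. For Vhl mutants against wild type (3 calls) the count was 6 with only the groups compared, 6 without double mutant replicates 3 and 4, 6 without double mutant replicates 1 to 3, 1 without wild-type replicates 1 and 2, and 1 with arrays averaged per number after moving double mutant replicate 3 to the number of replicate 4. For Pbrm1 mutants (2) it was 1 with arrays averaged per number, 1 without the trend, 1 with all probe sets in 1 fit, 1 without Pbrm1 mutant replicates 1 and 2 or 3 and 4, and 0 without wild-type replicates 1 and 2 or averaged with the move. For double mutants against wild type (8) it was 5 averaged with the move, 4 without double mutant replicates 3 and 4 and 4 without wild-type replicates 1 and 2. For double against Vhl mutants (3) it was 6 averaged per number, 5 with only these groups, 0 averaged with the move and 8 without double mutant replicates 1 to 3. For double against Pbrm1 mutants (4) it was 2 without double mutant replicates 3 and 4, 2 with all probe sets, 10 without double mutant replicates 1 to 3 and 2 without Pbrm1 mutant replicates 3 and 4. For Vhl against Pbrm1 mutants (1) it was 0 with probe sets of a gene averaged, averaged with the move, without Pbrm1 mutant replicates 1 and 2 or without Vhl mutant replicates 3 and 4, and 2 with only these groups or without double mutant replicates 3 and 4 or 1 to 3. For the interaction (0) it was 1 with no block, 1 without double mutant replicates 3 and 4, wild-type replicates 3 and 4 or Vhl mutant replicates 3 and 4, and 5 without double mutant replicates 1 to 3. Where an omission leaves 1 array in a group, that array is assumed to vary like the others. Counts in this section stand without the share of all genes called under the same alternative, which can change as well.

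Leaving out single arrays gave counts of 3 to 4 for Vhl mutants, 1 to 3 for Pbrm1 mutants, 4 to 12 for double mutants against wild type, 2 to 7 for double against Vhl mutants, 2 to 9 for double against Pbrm1 mutants, 0 to 1 for Vhl against Pbrm1 mutants and 0 to 1 for the interaction. The replicate number of the titles as a replicate block gave 3, 2, 9, 4, 5, 1 and 0 calls in the order of the comparisons above. Arrays with the same title number in different groups correlated at -0.074 to 0.059 (24 pairs), with 0 over 0.1, and 1 array was closest to its own number, so the samples share only a number. Moving double mutant replicate 3, omitting double mutant replicates 3 and 4, fitting all probe sets, and keeping to probe sets above the limit on all arrays were alternatives chosen after seeing the data. Probe sets under the background limit can give no reliable size.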
